A study of Mus musculus with 18 samples.

Results

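The transcripts described here encode 9 proteins of the postsynaptic density, the protein-rich layer under the membrane of an excitatory synapse: the scaffolds *Dlg2*, *Dlg4*, *Dlgap1*, *Shank1*, *Shank2*, *Shank3* and *Homer1*, and the α and β subunits of calcium/calmodulin-dependent protein kinase II (CaMKII), *Camk2a* and *Camk2b*. They were taken by name, and all 9 were found among the 38561 genes counted in each of 18 mRNA libraries and passed the count filter that 17545 genes passed. The libraries came from adult mice of the strain C57 Bl6J, 3 WT and 3 *Pcm1*-/- in each of 3 brain regions (frontal cortex, striatum, hippocampus). The *Pcm1*-/- mice (KO) carry a gene-trap insertion from embryonic stem cells in every cell of the body, in *Pcm1*, which encodes a protein of the centriolar satellites around the centrosome and the base of the cilium. They were backcrossed to C57BL/6J, for at least 3 generations by the paper's methods, and compared with untreated WT littermates. No allele other than the gene trap separates the groups by their labels. Other DNA of the stem cell line in KO mice was not examined. The study used mice of both sexes. All regions came from the same animals by the study's description, so libraries of different regions are not independent.

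Scaffolds of the postsynaptic density are stacked. *Dlg2* and *Dlg4* are membrane-associated guanylate kinases that bind glutamate receptors at the membrane, *Dlgap1* links their guanylate kinase domain to the Shank proteins, and Shank proteins bind Homer, which in turn binds metabotropic glutamate receptors. CaMKII is a holoenzyme of α and β subunits that is activated by calcium entering the spine and is needed for long-term potentiation in the hippocampus. In the striatum most neurons are GABAergic projection neurons that receive excitatory input, and deletion of *Shank3* is known to alter their synapses.

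*Pcm1* was at 120 to 172 CPM in the 9 WT libraries and at 11.8 to 17.6 CPM in the 9 KO libraries, so every library matched its label. CPM is the reads on a gene scaled to a common library size, here with totals corrected for composition by edgeR's TMM factors. Each library held 24950537 to 33405081 reads on genes, and a member had between 2499 and 165131 of them. The regions matched their labels too: the summed level of 8 markers of striatal projection neurons was 7573 to 8978 CPM in the striatum and 206 to 316 CPM elsewhere, that of 4 markers of hippocampal fields 362 to 432 CPM in the hippocampus and 23.4 to 65.3 CPM elsewhere, and that of 3 cortical layer markers 264 to 300 CPM in the cortex and 39.6 to 99.5 CPM elsewhere. General neuronal markers summed to 8899 to 10125 CPM in the cortex, 4291 to 4687 CPM in the striatum and 5896 to 8013 CPM in the hippocampus, and astrocyte markers to 1069 to 1427, 1182 to 1882 and 1885 to 2437 CPM. One library stood apart, replicate 3 of the WT striatum, with 5964 CPM summed over the choroid plexus markers against 31.0 to 166 CPM in the other 5 striatal libraries. The same sum ran from 221 to 6256 CPM within the hippocampus. Replicate 1 of the WT frontal cortex was the only cortical library of its sequencing lane. In the striatum all 3 WT libraries were run in one lane and the 3 KO libraries in other lanes, and the part of lane cannot be told apart from that of genotype there.

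The 9 genes lie on 6 chromosomes of the mouse genome GRCm38 and none on chromosome 8, which carries *Pcm1*. *Shank1* (ENSMUSG00000038738, chr7:44310253-44360572), *Shank2* (ENSMUSG00000037541, chr7:144001928-144424494) and *Dlg2* (ENSMUSG00000052572, chr7:90476672-92449247) share chromosome 7, *Dlg4* (ENSMUSG00000020886, chr11:70016942-70047522) and *Camk2b* (ENSMUSG00000057897, chr11:5969644-6066362) chromosome 11. *Dlgap1* (ENSMUSG00000003279) is at chr17:69969073-70821413, *Shank3* (ENSMUSG00000022623) at chr15:89499623-89560261, *Homer1* (ENSMUSG00000007617) at chr13:93299635-93405129 and *Camk2a* (ENSMUSG00000024617) at chr18:60925618-60988152. Only *Camk2b* is on the minus strand. Reads were counted over whole genes, so the isoforms of a gene, among them the short activity-induced form of *Homer1*, cannot be told apart. *Shank1* shares 339 exonic bases with the opposite-strand gene *1700008O03Rik*, which had 61 to 243 reads against 3370 to 31183 on *Shank1*, and *Shank3* shares 271 with the opposite-strand *Gm15609*, which had 8 to 22 reads.

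*Camk2a* was the most abundant of the 9 transcripts per length in WT frontal cortex and hippocampus. To compare genes, CPM was divided by the length in kilobases of the gene's longest annotated coding transcript (CPM per kb). In WT frontal cortex *Camk2a* stood at 1071 ± 80.5 CPM per kb (SD, n = 3), *Camk2b* at 228 ± 13.6, *Dlg4* at 161 ± 7.71, *Dlgap1* at 127 ± 4.56 and *Shank1* at 100 ± 9.81. Below them were *Dlg2* at 53.2 ± 2.21, *Homer1* at 47.5 ± 10.2, *Shank3* at 46.0 ± 5.42 and *Shank2* at 32.0 ± 2.88 CPM per kb. *Homer1* was within 1 SD of both *Dlg2* and *Shank3*, and the other neighbours in this order were further apart than their SDs.

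The order was another in the striatum. There *Camk2b* at 384 ± 26.8 and *Camk2a* at 381 ± 33.5 CPM per kb could not be ranked, and *Dlg4* followed at 155 ± 6.03. *Shank3* came next at 73.6 ± 11.6 CPM per kb, above *Dlg2* at 53.7 ± 4.59 and *Homer1* at 51.1 ± 7.74, which again overlapped. *Dlgap1* at 25.4 ± 1.82, *Shank1* at 13.6 ± 0.979 and *Shank2* at 11.3 ± 1.03 CPM per kb were the lowest. In the WT hippocampus the first 5 places were those of the cortex, with *Camk2a* at 966 ± 171, *Camk2b* at 391 ± 38.9, *Dlg4* at 143 ± 22.3, *Dlgap1* at 115 ± 12.7 and *Shank1* at 68.0 ± 12.6 CPM per kb. *Shank3* was at 50.6 ± 6.74 and *Dlg2* at 34.4 ± 5.37, and *Homer1* took the last place at 21.6 ± 1.54 CPM per kb, within 1 SD of *Shank2* at 22.2 ± 3.11. *Dlg4* and *Dlgap1*, and likewise *Shank1* and *Shank3*, lay closer there than the sum of their SDs. These places depend in part on the length chosen. With the summed length of all annotated exons in its place, WT striatum had *Camk2a* at 254 CPM per kb, above *Camk2b* at 169, and WT frontal cortex had *Shank1* at 93.6 CPM per kb, above *Dlg4* at 77.1 and *Dlgap1* at 50.8.

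**Figure D1:**
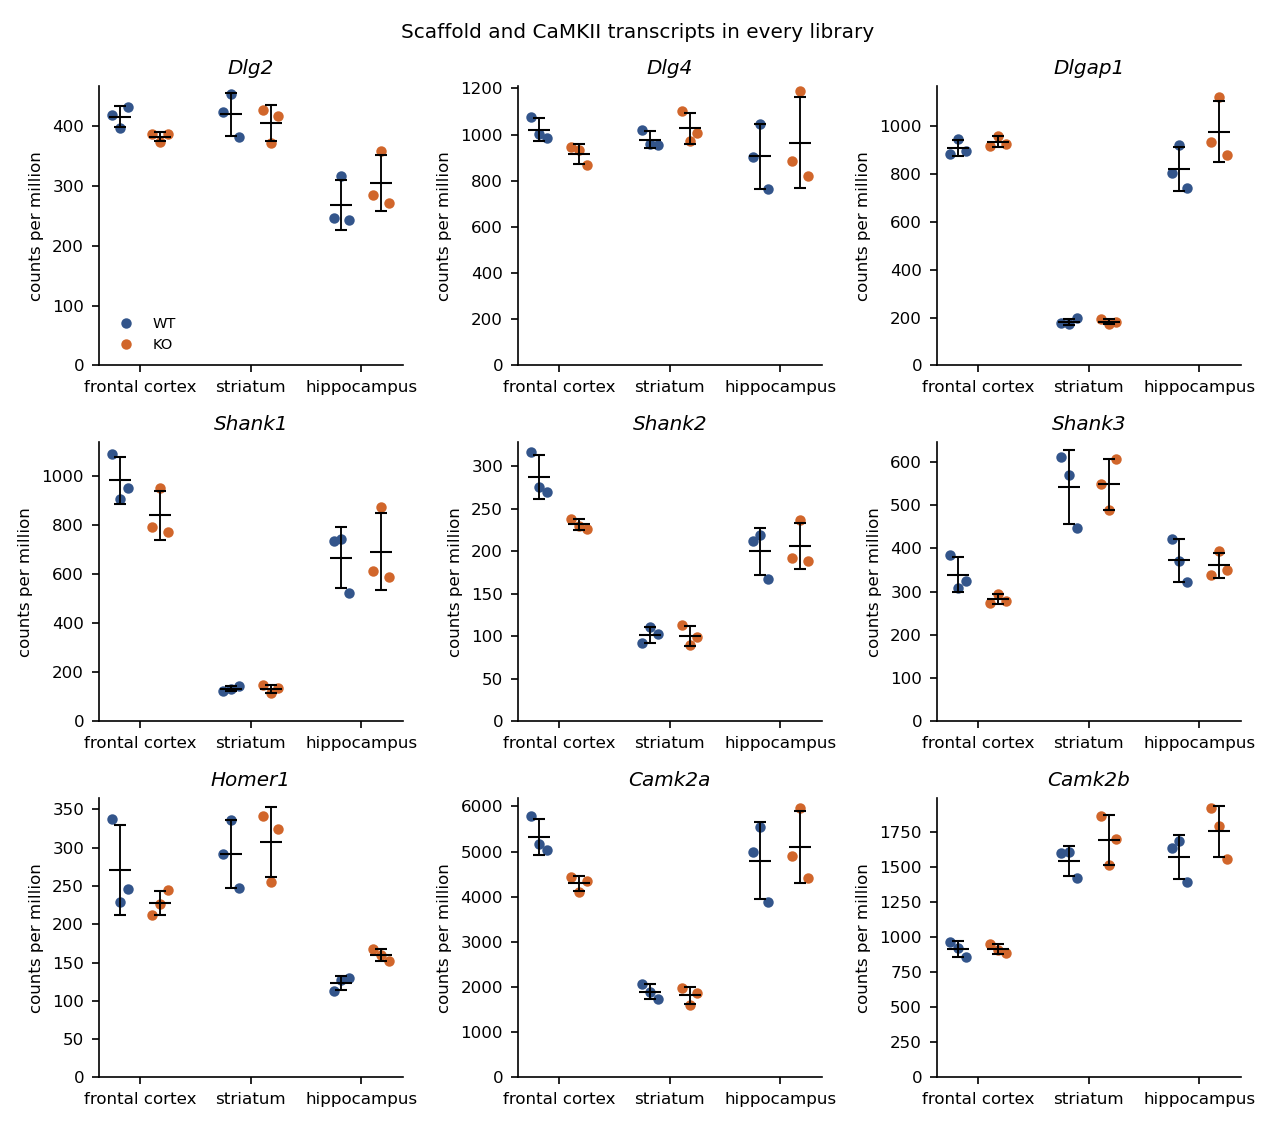
Level of each of the 9 transcripts in CPM (vertical axis, from 0) in the 18 libraries, by region and genotype; points are libraries and black bars the mean ± SD of 3 libraries. *Dlgap1*, *Shank1*, *Shank2* and *Camk2a* are lowest in the striatum in both genotypes, while *Shank3* is highest there and *Camk2b* is lowest in the frontal cortex.

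The scaffold genes did not move together between regions. In WT mice 4 of the 9 members were lower in the striatum than in the frontal cortex (*Shank1*, *Dlgap1*, *Shank2* and *Camk2a*), 2 were higher (*Camk2b* and *Shank3*) and the other 3 (*Dlg2*, *Dlg4* and *Homer1*) did not pass edgeR's quasi-likelihood test at an adjusted p under 0.05. The background is high in this comparison, since 41.5% of the 17545 genes passed it (20.6% higher and 20.9% lower), and the members' count is read against that. In bulk tissue fewer cells of a type and less RNA per cell cannot be told apart. Summed markers of excitatory neurons were at 19.7 to 89.9 CPM in the WT striatum and 2514 to 2580 CPM in the WT frontal cortex, and those of inhibitory neurons at 1679 to 1835 and 770 to 950 CPM. The part of such differences in cell make-up in the members' levels was not tested.

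*Shank1*, a scaffold that joins Dlgap and Homer proteins, differed most of the 9. It measured 1092, 906 and 953 CPM in the 3 WT frontal cortex libraries and 124, 133 and 143 CPM in the 3 WT striatum libraries. Every striatal library was below every cortical one, by 7.39-fold between the means, with a log2 fold change of -2.88 (SE 0.145, adjusted p 2.3e-07). *Dlgap1* measured 883, 945 and 898 CPM in the cortex and 176, 174 and 197 CPM in the striatum, 4.98-fold lower (log2 fold change -2.31, SE 0.102, adjusted p 1.1e-07). The third scaffold with such a gap was *Shank2*, with 317, 276 and 269 CPM in the cortex and 91.9, 110 and 102 CPM in the striatum (log2 fold change -1.50, SE 0.117, adjusted p 4.5e-06).

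*Shank3* went the other way from its paralogues. It measured 384, 308 and 324 CPM in the WT cortex and 611, 569 and 446 CPM in the WT striatum, with no overlap and a log2 fold change of 0.68 (SE 0.139, adjusted p 0.0028). The lowest striatal library was replicate 3, the one with choroid plexus transcripts, and without it the log2 fold change was 0.80. The kinase subunits also parted. *Camk2a*, the α subunit, measured 5782, 5159 and 5035 CPM in the WT cortex and 2058, 1899 and 1725 CPM in the WT striatum (log2 fold change -1.49, SE 0.141, adjusted p 1.7e-05), whereas *Camk2b*, the β subunit, measured 967, 925 and 858 CPM in the cortex and 1604, 1612 and 1421 CPM in the striatum (0.76, SE 0.102, adjusted p 0.00019).

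*Dlg4* and *Dlg2*, which hold receptors at the membrane, did not pass the test. *Dlg4* was at 1077, 1003 and 984 CPM in the WT cortex and 1022, 959 and 953 CPM in the WT striatum, and the 95% interval of its log2 difference ran from -0.31 to 0.19. For *Dlg2* the interval ran from -0.23 to 0.27 and for *Homer1* from -0.23 to 0.45.

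In the WT hippocampus *Homer1* differed most from the cortex. It measured 338, 229 and 247 CPM in the frontal cortex, 292, 336 and 248 CPM in the striatum and 113, 127 and 129 CPM in the hippocampus. All hippocampal libraries were below all others, with a log2 fold change of -1.14 against the cortex (SE 0.154, adjusted p 0.00038). *Dlg2* (-0.63, SE 0.113, adjusted p 0.0021), *Shank1* (-0.56, SE 0.135, adjusted p 0.011) and *Shank2* (-0.53, SE 0.114, adjusted p 0.0062) were lower too, and *Camk2b* was higher (0.78, SE 0.102, adjusted p 0.00032). These are 5 of 9 members called against 29.8% of all genes. *Camk2a* measured 4991, 5539 and 3874 CPM in the WT hippocampus, overlapping the cortex, and the interval of its log2 difference ran from -0.46 to 0.16. Replicate 3 had the lowest level of 8 of the 9 members there, *Homer1* being the exception.

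Between the striatum and the hippocampus of WT mice 7 of 9 members differed, against 29.2% of all genes. *Homer1* (1.25, SE 0.154), *Dlg2* (0.65, SE 0.113) and *Shank3* (0.55, SE 0.139) were higher in the striatum on the log2 scale and *Shank1* (-2.32, SE 0.142), *Dlgap1* (-2.17, SE 0.102), *Camk2a* (-1.34, SE 0.141) and *Shank2* (-0.97, SE 0.116) lower. The call of *Shank3*, with an adjusted p of 0.013, was lost at 0.060 without replicate 1 of the WT striatum and at 0.054 without replicate 3 of the WT hippocampus. *Camk2b* and *Dlg4* were not called.

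The KO libraries came from other animals, and their regional calls were in part others than those of WT mice. In KO mice striatum and frontal cortex differed in 7 of 9 members (54.3% of all genes), hippocampus and frontal cortex in 4 (41.5%) and striatum and hippocampus in 7 (45%). Against the cortex, *Shank1* was lower in the KO striatum by a log2 fold change of -2.66 (SE 0.165), *Dlgap1* by -2.35 (SE 0.097), *Camk2a* by -1.24 (SE 0.118) and *Shank2* by -1.19 (SE 0.103), while *Shank3* was higher by 0.96 (SE 0.089), *Camk2b* by 0.89 (SE 0.098) and *Homer1* by 0.44 (SE 0.102). *Homer1* was the member called here and not in WT mice, and its regional differences in the 2 genotypes were not called different (unadjusted p = 0.12 and adjusted p 1.00 by edgeR's interaction test). Between hippocampus and cortex *Shank3* was called higher in KO mice (0.35, SE 0.089, adjusted p 0.0097) and not in WT mice (0.13, adjusted p 0.51), and *Shank1* and *Shank2* were called in WT mice and not in KO mice. None of the 3 regional differences was called different between genotypes (edgeR's interaction test, unadjusted p = 0.23 for *Shank3*, 0.22 for *Shank1* and 0.045 for *Shank2*, adjusted p 0.90 to 1.00). In the KO hippocampus *Shank1* measured 613, 876 and 591 CPM and did not pass the test against the cortex (adjusted p 0.17). Without replicate 2, the library highest in 7 of the 9 members, it did (log2 fold change -0.49, adjusted p 0.0053), as did *Shank2* (-0.29, adjusted p 0.014). The call of *Dlg2* in that comparison was lost without replicate 1 or 3 of the KO cortex and without replicate 1 or 3 of the KO hippocampus (adjusted p 0.064 to 0.087).

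**Figure D2:**
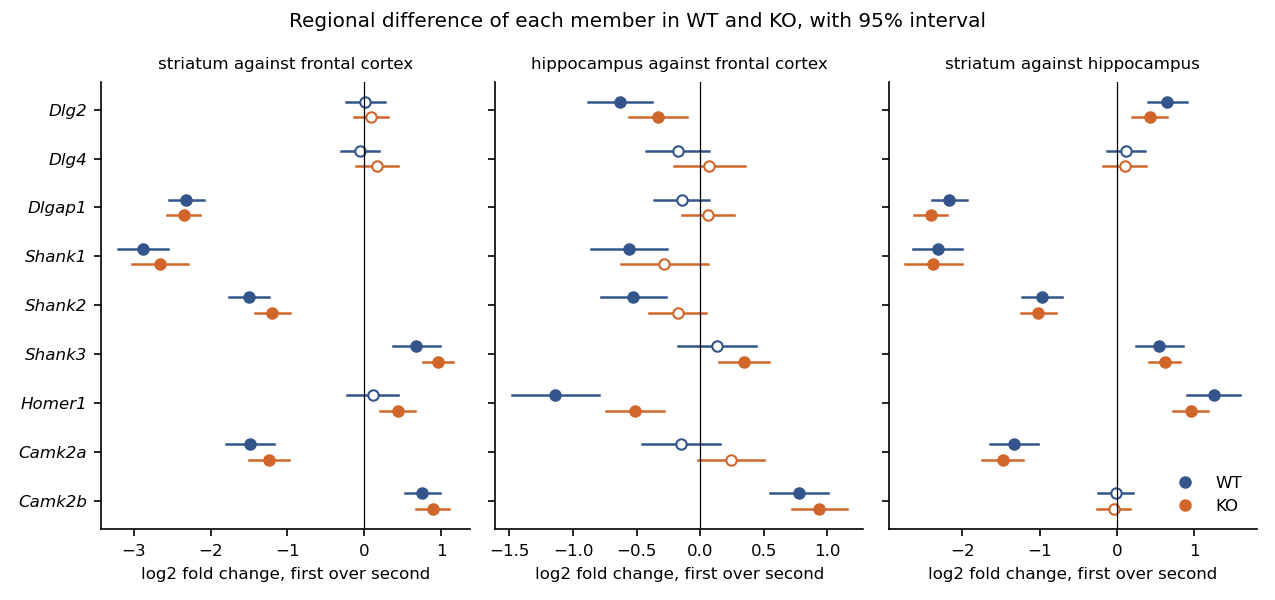
Log2 fold change of each member between pairs of regions (horizontal axis) in WT (blue) and KO (orange) mice, with 95% intervals from edgeR; filled points passed an adjusted p under 0.05. *Shank1*, *Dlgap1*, *Shank2* and *Camk2a* lie left of 0 in both striatal comparisons and *Shank3* right of 0, in both genotypes.

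Ratios of 2 related transcripts within a library do not depend on its total. The reads on *Camk2a* per read on *Camk2b* ranged from 4.53 to 5.98 over the 6 libraries of the frontal cortex, from 2.56 to 3.33 in the hippocampus and from 1.06 to 1.28 in the striatum. The 3 ranges are apart, and the ratio was 4.55-fold lower in the striatum than in the cortex (log2 difference -2.19, exact permutation p = 0.0022). It was 1.76-fold lower in the hippocampus than in the cortex, with the same p, which is the smallest that 6 against 6 libraries can give in a 2-sided test. Of the 12 comparisons of 4 ratios between region pairs, 11 reached that p, at an adjusted p of 0.0024. These tests treat libraries of one animal as independent.

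The Shank ratios spread further. Reads on *Shank1* per read on *Shank3* were 2.78 to 3.24 in the cortex, 1.62 to 2.23 in the hippocampus and 0.203 to 0.321 in the striatum. From cortex to striatum the ratio fell (log2 difference -3.58, -3.55 in WT and -3.61 in KO libraries; exact permutation p = 0.0022). Reads on *Shank2* per read on *Shank3* were 0.780 to 0.895, 0.503 to 0.603 and 0.150 to 0.229 in the same order, 4.48-fold lower in the striatum than in the cortex.

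*Dlg2* and *Dlg4* kept a nearly fixed ratio between cortex and striatum. Reads on *Dlg2* per read on *Dlg4* were 0.389 to 0.445 in the cortex and 0.383 to 0.473 in the striatum (log2 difference -0.0046, exact permutation p = 0.95). The log2 difference was 0.074 in WT and -0.083 in KO libraries. In the hippocampus the ratio was 0.272 to 0.331, below every other library, and 1.34-fold lower than in the cortex (exact permutation p = 0.0022).

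**Figure D3:**
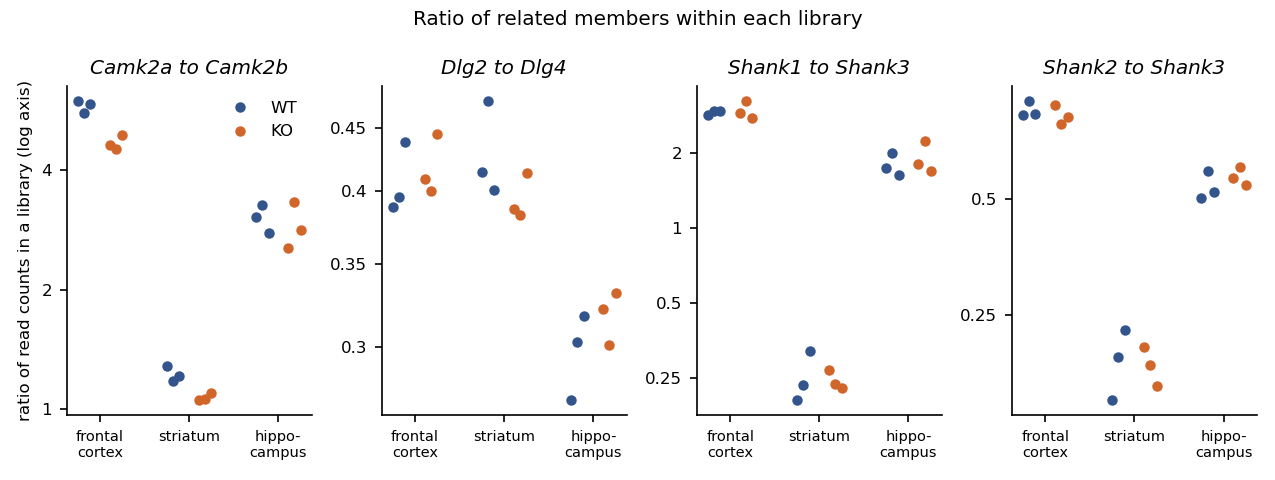
Reads on the first gene per read on the second in each library (vertical axis, log scale to base 2), by region, with WT in blue and KO in orange. Striatal ratios of *Camk2a* to *Camk2b* and of *Shank1* or *Shank2* to *Shank3* lie below all others, and *Dlg2* to *Dlg4* is lowest in the hippocampus.

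The stretches before the annotated starts are shown for *Dlgap1*, *Camk2b* and *Shank3*, which part between striatum and cortex, and for *Homer1*, which is treated below. *Shank1*, *Shank2* and *Camk2a*, which part there too, had no window. RefSeq windows of GRCm38.p6 matched 6 of the 9 members (*Dlg2*, *Dlg4*, *Dlgap1*, *Shank3*, *Homer1* and *Camk2b*), with 12 windows in all, since some genes have several starts. The first window along the strand is shown for each of 4 members, and 250 bases before the start are printed 5′ to 3′ on the gene's strand. Capitals mark matches, on either strand, to any of TGACG (the core of the cAMP response element), CACGTG (an E-box), TATAAA (the TATA box), GGGCGG (the GC box) and GCGTGGGCG (the site of Egr factors). A match is a run of letters, not a measured binding site. For *Shank3* the bases that follow the window were not found in an annotated transcript of the gene, whose annotated span starts at chr15:89499623.
*Dlgap1* (chr17:69968823-69969072, plus strand): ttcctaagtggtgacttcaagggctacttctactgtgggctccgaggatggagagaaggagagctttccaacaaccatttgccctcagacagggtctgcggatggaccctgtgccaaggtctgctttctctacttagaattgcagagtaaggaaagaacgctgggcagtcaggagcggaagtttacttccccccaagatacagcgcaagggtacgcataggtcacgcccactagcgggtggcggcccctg
*Camk2b* (chr11:6065749-6065998, minus strand, inside the annotated span of the gene): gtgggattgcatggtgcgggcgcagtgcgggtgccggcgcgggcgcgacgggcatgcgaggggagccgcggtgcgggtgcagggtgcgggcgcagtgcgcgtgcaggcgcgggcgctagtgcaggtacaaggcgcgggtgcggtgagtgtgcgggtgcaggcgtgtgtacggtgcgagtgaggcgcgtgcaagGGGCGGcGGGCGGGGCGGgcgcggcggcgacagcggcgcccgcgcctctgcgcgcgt
*Shank3* (chr15:89499358-89499607, plus strand): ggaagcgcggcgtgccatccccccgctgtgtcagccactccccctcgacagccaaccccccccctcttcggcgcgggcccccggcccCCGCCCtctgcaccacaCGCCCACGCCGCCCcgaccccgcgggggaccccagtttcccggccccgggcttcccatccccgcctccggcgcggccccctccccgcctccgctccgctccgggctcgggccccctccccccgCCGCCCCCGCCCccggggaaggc
*Homer1* (chr13:93303507-93303756, plus strand, inside the annotated span of the gene): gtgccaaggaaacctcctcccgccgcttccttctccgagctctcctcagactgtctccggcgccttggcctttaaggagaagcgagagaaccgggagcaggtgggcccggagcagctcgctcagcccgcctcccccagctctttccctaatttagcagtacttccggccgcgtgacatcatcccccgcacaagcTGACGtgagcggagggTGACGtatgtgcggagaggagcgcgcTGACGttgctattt

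The windows differ widely in base composition. GC content was 55.2% before *Dlgap1*, 62.4% before *Homer1*, 78.4% before *Camk2b* and 82.4% before *Shank3*. The *Dlgap1* window shown held none of the 5 motifs, and its other window (chr17:70561497-70561746) held 1 E-box. *Camk2b* had 3 GC boxes, overlapping in part, and *Shank3* had 4 along with 1 Egr site that overlaps a GC box. At least 1 GC box stands in 32.7% of the 32851 windows of the same length, at least 3 in 8.47%, and an Egr site in 0.536%. The *Homer1* window shown held TGACG 3 times and its other window (chr13:93307784-93308033) held none of the 5 motifs. At least 3 matches to TGACG were found in 0.688% of all windows and at least 1 in 17.8%.

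In the frontal cortex 1 of the 9 transcripts, *Camk2a*, was called lower in KO than in WT mice. It measured 5782, 5159 and 5035 CPM in the WT frontal cortex and 4428, 4114 and 4348 CPM in the KO frontal cortex. Every KO library was below every WT library, and the mean fell by 19.3% in KO mice (log2 fold change -0.32, SE 0.063, adjusted p 0.047 over 17545 genes). The 1 member of 9 called compares with 1.74% of all genes (306 genes, 0.336% lower in KO mice). This call stands close to its threshold: it was lost when any one library other than replicate 3 of the WT group was left out, with log2 fold changes from -0.33 to -0.25 and adjusted p from 0.091 to 0.20. It was also lost with lane in the model (log2 fold change -0.25, adjusted p 0.13) and in 1 fit of all 18 libraries (-0.31, adjusted p 0.40).

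None of the other members passed the test there. *Shank2* measured 317, 276 and 269 CPM in WT and 238, 230 and 226 CPM in KO cortex (log2 fold change -0.32, SE 0.069, adjusted p 0.061), and whether it was called turned on the setting. It was called by DESeq2 (adjusted p 0.0030), with the replicate block (0.019), without a filter beyond 1 read (0.027) and without WT replicate 3 (0.020), and not with lane in the model (0.16) or in the fit of all 18 libraries (0.29). *Shank3* was at 384, 308 and 324 CPM in WT and 273, 295 and 279 CPM in KO mice (-0.27, SE 0.083, adjusted p 0.16; -0.17 without WT replicate 1). For *Dlg4* the values were 1077, 1003 and 984 CPM in WT and 945, 933 and 868 CPM in KO mice (-0.17, SE 0.057, adjusted p 0.22). *Dlg2* (-0.13), *Shank1* (-0.23, and -0.15 without WT replicate 1) and *Homer1* (-0.26) had negative log2 fold changes too, while *Dlgap1* (0.04, 95% interval -0.08 to 0.15) and *Camk2b* (-0.01, interval -0.14 to 0.13) lay near 0.

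The median log2 fold change of the 9 members in the frontal cortex was -0.23, against -0.0066 over all genes tested. The KO libraries lay wholly below the WT libraries for 5 members (*Dlg2*, *Dlg4*, *Shank2*, *Shank3* and *Camk2a*), as they did for 9.28% of all genes, and 6 members had an unadjusted p under 0.05 against 15.3% of all genes. The members' reads were 0.973 to 1.08% of all gene reads in the WT cortex and 0.872 to 0.894% in the KO cortex. *Camk2a* was the largest part of this, with mean levels of 5325 CPM in WT and 4297 CPM in KO cortex. The 9 members summed to 10000 to 11256 and 8941 to 9149 CPM. WT replicate 1 had the highest level in its group of 7 members (*Dlg4*, *Homer1*, *Camk2a*, *Camk2b* and all 3 Shank genes), and it is the only cortical library of its lane. The summed markers of 3 other cell types were higher in every WT than in every KO cortical library, with WT replicate 1 highest in each. Oligodendrocyte markers summed to 1651 to 2182 CPM in WT and 1503 to 1594 CPM in KO mice, microglial markers to 298 to 400 and 256 to 290 CPM, and endothelial markers to 136 to 193 and 121 to 129 CPM. Excitatory neuron markers went the other way from the members, with a sum of 2514 to 2580 CPM in WT and 2897 to 3069 CPM in KO cortex. So did the markers of striatal projection neurons, at 235 to 261 and 292 to 316 CPM. The sums of general and of inhibitory neuron markers overlapped between genotypes. The part of lane and of these markers in the members' differences was not tested further.

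**Figure D4:**
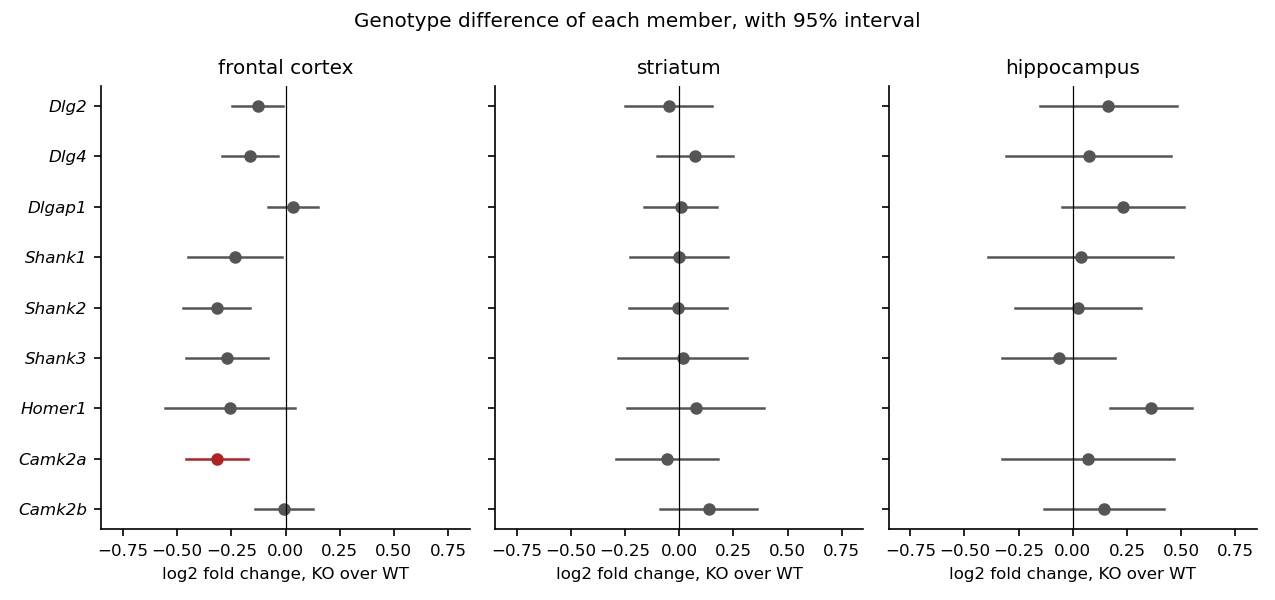
Log2 fold change of each member in KO over WT mice (horizontal axis) with its 95% interval from edgeR, in 3 regions; red marks an adjusted p under 0.05. In the frontal cortex 8 of 9 points lie below 0 and *Camk2a* alone is red, in the striatum all lie within 0.14 of 0, and in the hippocampus *Homer1* is farthest from 0 at 0.36.

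In the striatum no member was called between genotypes. By edgeR 0 of 9 members were called, against 0.0285% of all genes, none had an unadjusted p under 0.05 against 13.5% of all genes, and DESeq2 called none. The largest log2 fold change was that of *Camk2b*, 0.14 (interval -0.09 to 0.36), and that of *Shank3*, whose loss is known for its striatal effects, was 0.02 (interval -0.28 to 0.31). Without WT replicate 3, the library with choroid plexus transcripts, the 9 values ran from -0.12 for *Camk2a* to 0.08 for *Camk2b*. *Shank3* was then at -0.11, *Dlg2* at -0.11 and *Homer1* at -0.03. *Camk2a* measured 2058, 1899 and 1725 CPM in WT and 1975, 1610 and 1872 CPM in KO striatum. KO replicate 2 had the lowest level of its group for all 9 members and KO replicate 1 the highest for 8. WT and KO libraries overlapped for all 9 members, against 19% of all genes without overlap.

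*Homer1* was the member farthest apart in the hippocampus. It measured 113, 127 and 129 CPM in WT and 168, 160 and 152 CPM in KO mice, and every KO library was above every WT library, as for 10.6% of all genes. The 1.30-fold difference between the means (log2 fold change 0.36, SE 0.082) had an unadjusted p of 0.0024 by edgeR and did not pass the adjustment (adjusted p 0.39), whereas DESeq2 called it (adjusted p 0.014). No member was called in the hippocampus by edgeR, against 0.0171% of all genes, and 1 had an unadjusted p under 0.05 against 9.89% of all genes. The others ran from -0.07 for *Shank3* to 0.23 for *Dlgap1*, with intervals that all held 0. With 1 library left out *Shank3* ran from -0.17 to 0.04 and *Dlgap1* from 0.13 to 0.31. Over all genes edgeR's common coefficient of variation between libraries was 16.4% in the hippocampus, 13.8% in the striatum and 9.49% in the cortex. *Camk2a* ranged from 3874 to 5539 CPM among WT and from 4420 to 5967 CPM among KO hippocampal libraries, while *Homer1* spread less there than in the other regions. Excitatory neuron markers summed to 1931 to 2439 CPM in WT and 2436 to 3025 CPM in KO hippocampus, and choroid plexus markers to 2147 to 6256 and 221 to 4134 CPM. The sums of endothelial markers did not overlap, at 111 to 165 CPM in WT and 94.0 to 107 CPM in KO mice, and those of oligodendrocytes were 4237 to 7950 and 3162 to 5129 CPM. Their part in the difference of *Homer1* was not tested.

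The genotype difference of *Homer1* was negative in the cortex and positive in the hippocampus, but the cortical interval held 0. In the cortex it measured 338, 229 and 247 CPM in WT and 212, 227 and 245 CPM in KO mice, a log2 fold change of -0.26 (SE 0.132, 95% interval -0.56 to 0.04). That value rests on WT replicate 1: it was -0.07 without that library and -0.36 at its most negative with another left out. The difference between the genotype effects of the hippocampus and the cortex was 0.63 (SE 0.198, unadjusted p = 0.0057 by edgeR), with an adjusted p of 0.61. All interaction tests here treat libraries of one animal as independent. Over all 3 regions *Homer1* had the smallest interaction p of the members (unadjusted p = 0.019 by edgeR, adjusted p 0.75). No member was called in that test, against 2 of 17545 genes (0.0114%), and no member was called by DESeq2, against 0.536% of all genes.

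*Homer1* has a short form that neuronal activity induces, so immediate early genes, which activity switches on within minutes, were set beside it. None of 12 such genes passed the adjusted threshold of edgeR in any region, and DESeq2 called 1 in the cortex and 4 in each of the other regions, against 3.93%, 2.78% and 1.25% of all genes. In the hippocampus all 12 had a positive log2 fold change and 8 an unadjusted p under 0.05 against 9.89% of all genes, with a median of 0.48, while the median over all genes was near 0. *Egr1*, a transcription factor, measured 214, 157 and 206 CPM in WT and 267, 304 and 229 CPM in KO hippocampus (0.45, SE 0.146, adjusted p 0.43). *Arc*, which regulates receptor uptake at the synapse, was at 225, 155 and 185 CPM in WT and 246, 348 and 220 CPM in KO mice (0.51, SE 0.193, adjusted p 0.46), and *Fos* at 23.3, 15.0 and 22.5 CPM and 25.8, 30.7 and 25.9 CPM (0.42, SE 0.173, adjusted p 0.50). In the striatum 11 of the 12 were positive with a median of 0.37, and in the cortex 9 of 12 with a median of 0.16. *Homer1*, at 0.36 in the hippocampus, 0.08 in the striatum and -0.26 in the cortex, was below the median of the 12 in all 3 regions. Between regions of WT mice all 12 were called lower in the hippocampus than in the cortex, against 15.3% of all genes, as *Homer1* was. In the WT striatum 4 of the 12 were called lower than in the cortex (20.9% of all genes), and *Homer1*, at 0.11, was not called.

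**Figure D5:**
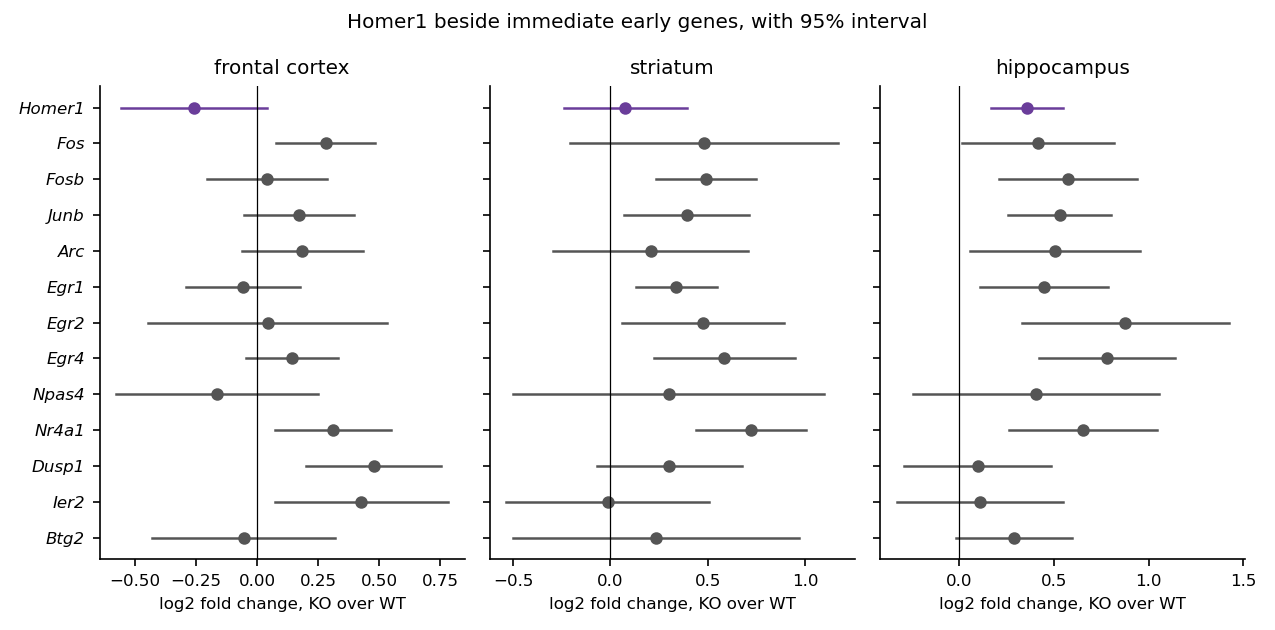
Log2 fold change in KO over WT mice (horizontal axis) of *Homer1* (purple) and of 12 immediate early genes (grey), with 95% intervals from edgeR, in 3 regions. In the hippocampus all 13 points lie above 0, and none of them passed an adjusted p under 0.05.

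The ratio of *Camk2a* to *Camk2b* reads is given by genotype as a description, chosen after its values were seen. *Camk2b* was not called between genotypes in any region, and *Camk2a* in the frontal cortex alone. Reads on *Camk2a* per read on *Camk2b* were 5.98, 5.57 and 5.87 in WT and 4.64, 4.53 and 4.90 in KO frontal cortex. In the striatum they were 1.28, 1.18 and 1.21 in WT and 1.06, 1.06 and 1.10 in KO mice, again without overlap, and neither gene was called there (adjusted p 0.86 and 0.59). The hippocampus gave 3.05, 3.28 and 2.78 in WT and 2.56, 3.33 and 2.83 in KO mice, and there the genotypes overlapped. The genotype difference of these ratios was not tested.

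Close relatives of the members parted between regions too. *Homer2*, a second Homer scaffold, measured 119, 108 and 120 CPM in WT cortex, 25.7, 27.3 and 23.4 CPM in WT striatum and 139, 138 and 148 CPM in WT hippocampus, so it fell in the striatum (log2 fold change -2.18, SE 0.083) where *Homer1* did not. *Homer3* was at 3.80 to 5.22 CPM in the cortex and 43.0 to 52.5 CPM in the hippocampus (3.33, SE 0.148). The other CaMKII subunits, *Camk2d* (-1.73, SE 0.143) and *Camk2g* (-1.82, SE 0.120), were lower in the WT striatum than in the cortex, as *Camk2a* was and *Camk2b* was not. Of the Dlgap family *Dlgap4* was lower in the striatum (-0.54, SE 0.101) and *Dlgap3* higher (0.36, SE 0.124), while *Dlgap2* was not called (-0.19). *Dlg3* was lower there (-0.36, SE 0.068) and *Dlg1* higher (0.26, SE 0.080), and *Dlg1* was lower in the hippocampus (-1.01, SE 0.081).

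Of 35 other genes of the postsynaptic density, relatives included, none was called between genotypes in any region by edgeR. Unadjusted p values under 0.05 were found for 10 in cortex, 3 in striatum and 8 in hippocampus (15.3%, 13.5% and 9.89% of all genes), and the median log2 fold changes were -0.07, 0.03 and 0.13. DESeq2 called 2, 0 and 0 of them. Between WT striatum and cortex 8 of the 35 rose and 18 fell, against 20.6% and 20.9% of all genes. Between WT hippocampus and cortex 4 rose and 16 fell, against 14.5% and 15.3%.

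The genes most like each member over the 18 libraries were found by the root mean square difference of their log2 CPM, each centred on its own mean, among 5784 well-expressed genes. Nearest to *Dlgap1*, whose own SD over the libraries was 1.10, were *Sobp* at 0.133, *Gprin1* at 0.135 and *Cdk14* at 0.183. *Basp1* at 0.189 and *Sobp* at 0.213 were nearest to *Shank1* (SD 1.23), and *Ppm1h* at 0.125 and *Flot1* at 0.141 to *Shank2* (SD 0.593). *Schip1* at 0.135 and *Plch2* at 0.155 were nearest to *Camk2a* (SD 0.675), *Ppfia4* at 0.106 and *Cttnbp2* at 0.108 to *Camk2b* (SD 0.412), *Zfhx2* at 0.0835 to *Shank3* (SD 0.373) and *Tacc1* at 0.163 to *Homer1* (SD 0.503). *Dlg2* and *Dlg4* varied least, with SDs of 0.277 and 0.149, and lay nearest to *Palm* at 0.0901 and *Ptms* at 0.0786. Among the members the closest pairs were *Shank2* and *Camk2a* (0.208), *Dlg2* and *Dlg4* (0.219) and *Dlgap1* and *Shank1* (0.246). Libraries of a region share their cell make-up, so these values describe likeness across regions.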

How the data were processed

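Differential expression was computed from raw read counts per gene. The authors prepared stranded mRNA libraries, trimmed the reads with Trim Galore and Cutadapt, mapped them to GRCm38 using STAR, discarded reads with several positions and deposited the counts from HTSeq. Tool versions and the strand setting are not given in the sources used here, so reads of overlapping opposite-strand genes may not be separated. Rows that name no gene held 10.8 to 13.2% of counted reads and were left out.

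Groups came from the sample labels. Genes with at least 10 counts in 1 of 18 libraries were tested with edgeR 4.0.16 (R 4.3.3; TMM factors, quasi-likelihood test, Benjamini-Hochberg adjustment over 17545 genes, threshold 0.05), for genotypes within a region, for regions within a genotype and for their interaction over all libraries. log2 CPM used a prior count of 2. Ratios were tested by exact permutation in scipy 1.17.1, 2-sided. DESeq2 1.42.0, RLE factors, other filters, lane, blocks and leaving out each library were alternatives. The count tests were tested on simulated data first.

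Animals were read from the deposited names. KO replicate numbers mark the same animals in every region, and libraries of one KO animal correlated at 0.110 to 0.318 after removal of group means. WT numbers mark the same animals in cortex and hippocampus, but WT striatum replicates 1, 2 and 3 are the animals of cortical replicates 3, 1 and 2. WT and KO mice are different animals. Same-numbered WT and KO libraries correlated at 0.0428 to 0.260 in the cortex, 0.0955 to 0.507 in the hippocampus and -0.269 to 0.178 in the striatum, or 0.0635 to 0.388 with striatal WT libraries renumbered by animal. As not every pair was above 0.1 in either numbering, the numbers were not taken to pair the genotypes. No 2 libraries of a group agreed within sampling noise. By their names the 3 libraries of a group come from 3 animals, and p-values cover the spread between them.

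The members, the gene lists and the alternatives were chosen with earlier results of these data known. Named genes are *Pcm1*, the 9 members, their paralogues, 3 immediate early genes, at most 6 of the other postsynaptic density genes called by edgeR per genotype comparison (none was) and up to 3 genes nearest to each member. The lists of other postsynaptic density genes, immediate early genes and cell type markers were written from general knowledge; the nearest genes had a mean log2 CPM of at least 5. Positions are from GENCODE of GRCm38, another release than that counted.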

Additional observations from a re-analysis of the deposited data

How the results depend on the processing

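The count of members called was within 1.5 times of its first value under every alternative in all region comparisons and in the interaction, those that leave out 1 library included. In the frontal cortex, where 1 member (*Camk2a*) was called between genotypes, 2 (*Camk2a* and *Shank2*) were called without a filter beyond 1 read, by DESeq2 and with the replicate block, and 0 in 1 fit of all 18 libraries and with lane within the region. The cause was not tested. In the hippocampus DESeq2 called 1 member (*Homer1*) in place of 0. In the genotype tests same-numbered WT and KO libraries are different animals, and whether they share more than a number was not tested. Each cortical library correlated best with its own number. The replicate block uses the numbers of the labels, which in the WT striatum do not follow the animals of the other regions. It left the counts at 0 in the striatum, hippocampus and interaction, and at 6, 5 and 7 in WT and 7, 4 and 7 in KO mice between regions. With the animal as the block, which was used between regions only, the counts were the same. The genes called between genotypes in the cortex numbered 306, 544 without the filter, 690 by DESeq2, 665 with the block, 176 in the fit of all libraries and 29 with lane. In the striatum 5 genes became 65 without the filter, 488 by DESeq2, 3 with the block and 54 in the fit of all libraries, in the hippocampus 3 became 220 by DESeq2, 9 with the block and 205 in that fit, and in the interaction 2 became 94 by DESeq2, 1 with the block and 0 with RLE factors, filterByExpr or lane.

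With 1 library left out, members called ranged from 0 to 2 in the cortex, stayed at 0 in the other regions and the interaction, and between regions ran from 6 to 6, 5 to 6 and 6 to 7 in WT and 7 to 8, 3 to 6 and 7 to 8 in KO mice. In the cortex 2 (again *Camk2a* and *Shank2*) were called without WT replicate 3 and 0 without any other library, and the genes called there ran from 11 to 825. None of the 12 ratio comparisons changed its call with 1 library left out or with ratios of summed counts. Of the members' log2 fold changes none reversed a call.

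Per-length levels with summed exon lengths were chosen after seeing the data, and 48 of 54 moved by more than 1 SD. The lowest read count of a member in any library was 2499, and the part of depth was not tested.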
